A study of Mus musculus with 2 samples.

Results

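Tandem IRF element peaks are places bound by IRF4 where the DNA under the summit holds 2 copies of the core that interferon regulatory factors read, a guanine and the adenines after it, in the same direction and 2 bases apart. Binding was mapped by chromatin immunoprecipitation and sequencing (ChIP-seq) with an antibody to IRF4 in CH12.LX, an immortalised mouse B-cell lymphoma line from the strain B10.H-2aH-4bp/Wts. The labels give 2 biological replicates, no treatment and no second genotype, so peaks are compared with other peaks and with sequence beside them. They do not say whether the replicates came from separate cultures. A peak counted as a member when the 101 bp centred on its summit held GAAANNGAAA on either strand and no ETS-IRF element, GGAANNGAAA, which reads an ETS factor beside an IRF. Of 27671 peaks in the authors' mm9 list, 1602 held the tandem element and 148 of these also held an ETS-IRF element, which left 1454 members. The other 26217 peaks comprised 2401 with an ETS-IRF element and 23816 with neither.

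IRF proteins bind the core with a shared DNA-binding domain. Pairs of cores in tandem form the interferon-stimulated response element, through which interferon switches on antiviral genes, and to which IRF family members also bind. In B cells IRF4 is best known for binding with the ETS factors PU.1 or SPIB at ETS-IRF elements and with BATF and JUN at AP-1-IRF elements, and for its part in plasma cell formation.

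The windows of the 5 strongest members are shown here because they carry the element at the highest signal. The capitals mark the tandem element. Each window is named by its nearest or host gene, runs 5′ to 3′ on the strand where the element reads GAAANNGAAA, and was read from the mm9 (NCBIM37) genome.
Ppa2 (chr3:132995381-132995481, plus strand): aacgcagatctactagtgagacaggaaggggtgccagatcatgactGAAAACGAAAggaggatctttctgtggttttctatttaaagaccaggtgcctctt
Mrpl39 (chr16:84621732-84621832, minus strand): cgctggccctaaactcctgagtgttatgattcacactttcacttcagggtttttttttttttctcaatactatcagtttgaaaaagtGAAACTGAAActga
Ostn (chr16:27349534-27349634, plus strand): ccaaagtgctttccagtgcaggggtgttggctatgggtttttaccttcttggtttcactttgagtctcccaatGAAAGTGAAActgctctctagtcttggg
Stoml1 (chr9:58119119-58119219, plus strand): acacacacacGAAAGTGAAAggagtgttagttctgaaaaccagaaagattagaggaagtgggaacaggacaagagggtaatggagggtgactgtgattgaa
Smg1 (chr7:125421085-125421185, minus strand): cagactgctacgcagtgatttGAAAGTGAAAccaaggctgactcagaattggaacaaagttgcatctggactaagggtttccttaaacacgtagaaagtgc

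The 5 strongest members at promoters follow, whose summit is at most 1 kb from a protein-coding transcript start. In Irgm1 another core continues the series at the same spacing, so the capitals run on.
Gbp7 (chr3:142193203-142193303, minus strand): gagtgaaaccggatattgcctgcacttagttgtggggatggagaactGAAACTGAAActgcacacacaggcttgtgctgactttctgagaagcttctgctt
Lgals8 (chr13:12552850-12552950, plus strand): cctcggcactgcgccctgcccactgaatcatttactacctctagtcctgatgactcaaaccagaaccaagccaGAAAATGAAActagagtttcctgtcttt
Irgm1 (chr11:48684881-48684981, minus strand): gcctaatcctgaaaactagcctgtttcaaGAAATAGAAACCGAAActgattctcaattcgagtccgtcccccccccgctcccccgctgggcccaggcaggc
Tmem229b (chr12:80081799-80081899, plus strand): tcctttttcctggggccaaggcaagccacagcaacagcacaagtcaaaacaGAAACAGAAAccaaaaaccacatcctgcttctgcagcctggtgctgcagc
Slco5a1 (chr1:12981702-12981802, plus strand): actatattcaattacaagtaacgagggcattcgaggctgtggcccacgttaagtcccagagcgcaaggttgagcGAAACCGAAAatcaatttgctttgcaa

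A further 5 windows show 3 cores in a row (Socs1, Stat3 and Tapbp), 4 overlapping or separate copies (Zbp1) and 2 separate copies (Ifit1). The last is named by the gene of the antiviral list, 84 bp away, while its nearest start, at 44 bp, is that of 2010002M12Rik.
Socs1 (chr16:10785661-10785761, minus strand): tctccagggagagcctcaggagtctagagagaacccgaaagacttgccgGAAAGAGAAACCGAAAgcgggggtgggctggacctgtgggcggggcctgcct
Stat3 (chr11:100793021-100793121, minus strand): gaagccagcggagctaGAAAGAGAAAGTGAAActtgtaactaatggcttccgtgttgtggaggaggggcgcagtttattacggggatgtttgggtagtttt
Tapbp (chr17:34056528-34056628, plus strand): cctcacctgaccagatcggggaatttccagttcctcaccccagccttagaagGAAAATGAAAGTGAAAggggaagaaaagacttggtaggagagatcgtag
Zbp1 (chr2:173044453-173044553, plus strand): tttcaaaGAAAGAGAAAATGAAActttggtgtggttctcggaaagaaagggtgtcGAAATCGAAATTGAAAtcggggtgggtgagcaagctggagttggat
Ifit1 (chr19:34715227-34715327, minus strand): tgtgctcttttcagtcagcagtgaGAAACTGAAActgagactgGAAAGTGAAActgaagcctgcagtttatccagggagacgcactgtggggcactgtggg

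The tandem element lay at 5.25% of summits (95% Wilson interval 4.998% to 5.52%), against 1.41% (1.32% to 1.52%) of windows of the same length and rule centred 300 bp to either side of the same summits. That is 3.71 times the level beside the peaks. By location, the ratio to the sequence beside was 3.63 at promoters, where 3.36% of peaks were members, 3.95 in introns, where 5.52% were members, and 3.404 between genes, where 5.63% were members. The member share ran from 4.03% of 3050 peaks on chromosome 11 (3.39% to 4.79%) to 6.49% of 1047 peaks on chromosome 12 (5.16% to 8.15%). The number of reads behind each list is unknown, and all intervals cover counting error over peaks, which are not replicates.

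The spacing of 2 bases stood apart from the other spacings. Among windows without an ETS-IRF element, 2 cores in the same direction with a gap of 2 bases occurred in 5.75% at summits (5.47% to 6.05%), against 1.43% beside them, a ratio of 4.03. With the same direction and any other gap of up to 10 bases, the ratio ran from 0.868 at a gap of 0 to 2.06 at a gap of 8. A row of 3 cores at the member spacing also gives a gap of 8. With a gap of 3 bases the ratio was 1.91. Cores that faced each other reached at most 2.21, at a gap of 1. Cores that faced away from each other reached 3.71 at a gap of 0, which rests on 41 summit windows against 24 beside them. The same letters in backward order, AAAGNNAAAG, occurred in 2.36% of all summit windows, against 1.52% beside them.

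**Figure D1:**
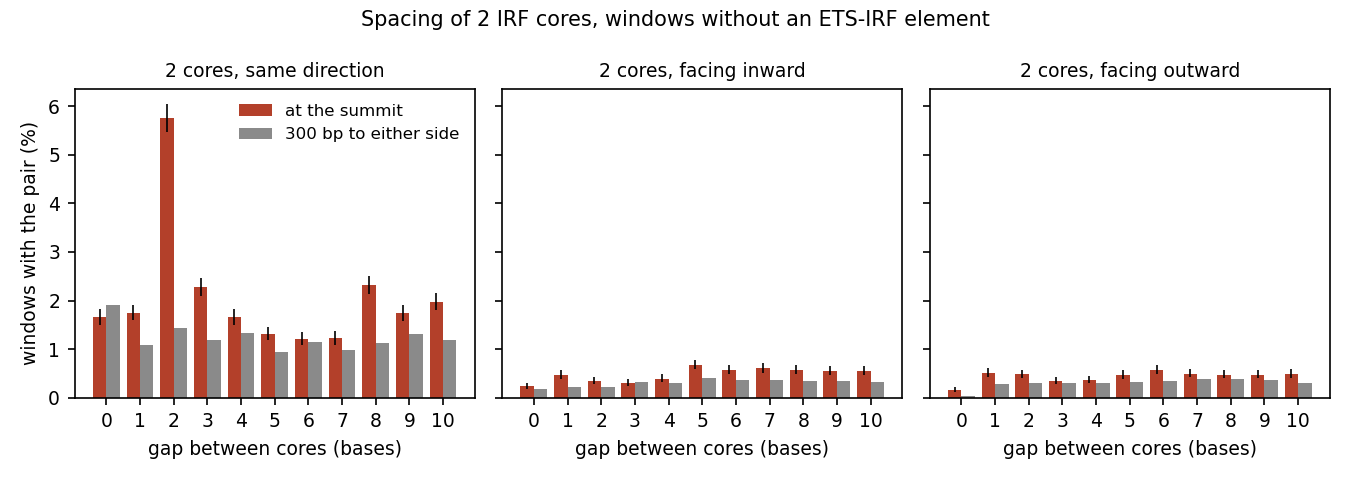
Percent of windows without an ETS-IRF element that hold 2 IRF cores, by gap in bases and by direction, at summits (red, with 95% Wilson intervals) and 300 bp to either side (grey). The gap of 2 in the same direction reaches 5.75% at summits, against 1.43% beside them.

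Within the window the element lay near the summit. The copy nearest to the summit had its centre at a median of 17.5 bp from it in members, against 22.5 bp from the centre in windows beside peaks. It lay within 15 bp in 45.0% of members (42.5% to 47.6%), against 33.8% of the windows beside (30.6% to 37.2%) and 32.6% for even placement. The ETS-IRF element lay within 15 bp in 48.9% of its peaks and the backward element in 38.0% of its windows. Among members, the median signal was lowest where the copy lay farthest from the summit. With the copy within 15 bp the median signal was 84.6, with the copy 15 to 30 bp away it was 84.3, and with the copy 30 to 50 bp away it was 72.5. Of these 3 sets, 33.7%, 31.1% and 25.9% were in the top 25% of the whole list by signal. The intervals, 30.2% to 37.4%, 27.1% to 35.5% and 21.6% to 30.8%, all overlap. At the edge of the rule, 108 members whose nearest copy reached within 5 bp of the window's edge had a median signal of 75.5, and 173 peaks with a copy just outside, within 60 bp of the summit, had 68.5.

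**Figure D2:**
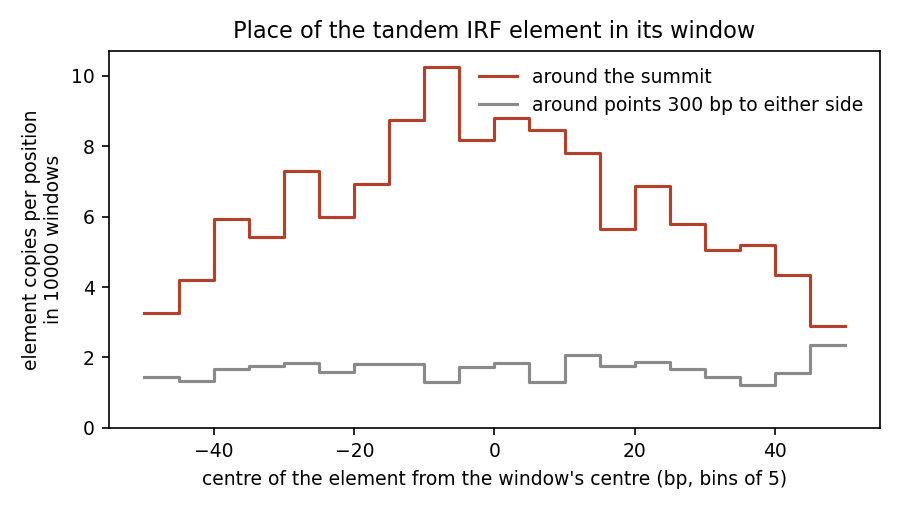
Copies of the tandem element per position in 10000 windows, by distance of the element's centre from the window's centre in bins of 5 bp, around summits (red) and around points 300 bp to either side (grey). Copies are most frequent from 10 to 5 bp before the summit, at 10.3, and the outermost bins rest on 1 position each.

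The rule leaves the 2 bases between the cores free, and they differed between copies under summits and copies beside them. Of 1690 copies at summits, 21.2% had CT between the cores (19.3% to 23.2%), against 5% of 840 copies beside (3.72% to 6.69%). GT made up 16.9% at summits and 4.52% beside, and CA made up 12.1% and 6.79%. CC was at 5.21% (4.25% to 6.37%) against 0.833% (0.404% to 1.71%), and GC at 3.37% (2.61% to 4.34%) against 0.476% (0.185% to 1.22%). The 4 pairs of purines, which join the cores into a purine run, went the other way. AA was at 4.14% of summit copies (3.29% to 5.20%) against 27.02% of copies beside (24.1% to 30.1%), AG at 3.55% against 11.1%, GA at 8.93% against 13.2%, and GG at 2.60% against 7.26%. This direction was not limited to purine pairs. TA was at 2.31% (1.69% to 3.14%) against 4.64% (3.41% to 6.28%), and TT, CG and TG were also lower at summits, with intervals that overlap. The bases after the second core also differed: the first was C in 39.5% at summits and in 14.7% beside, and the second was T in 39.8% and in 18.3%. Both Gbp7 and Ifit1, shown above, continue in this way with a C and a T.

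Signal overlapped widely between the pairs. The 82 windows with CC had a median of 111, and 45.1% were in the top 25% (34.8% to 55.9%), against 31.1% of all members. The 347 windows with CT, the most frequent pair, had a median of 80.5 with 34.3% in the top 25% (29.5% to 39.4%). The 67 windows with AA had 90.8 with 37.3% (26.7% to 49.3%). The intervals of these 3 pairs overlap. The 18 windows with TC, the least frequent pair, had a median of 119. Of the CC windows 21.95% were at promoters, against 9.22% of the CT windows.

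Additional copies were more frequent at summits than beside them. At least 2 copies lay in 156 members, or 10.7% (9.24% to 12.4%), against 4.47% of the windows beside that held the element (3.23% to 6.15%). A row of 3 cores at the same spacing lay in 124 members, or 8.53% (7.20% to 10.1%), against 3.07% (2.07% to 4.52%). The number of copies was not accompanied by a difference in signal beyond the intervals: 31.4% of members with at least 2 copies were in the top 25% (24.6% to 39.1%), against 31.0% of members with 1 copy (28.6% to 33.6%). Members with 3 cores in a row had 30.6% (23.2% to 39.2%) against 31.1% without it (28.7% to 33.7%).

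The 5 strongest peaks with 3 cores in a row were those of Irgm1, Socs1, Atxn1, Stat3 and Tnrc6b. Irgm1, an interferon-induced GTPase that acts against bacteria inside cells, had its summit 9 bp upstream of the start, with signal 514 in the mm9 list, 145 in replicate 1 and 143 in replicate 2. Socs1, an inhibitor of the kinases below cytokine receptors, had its summit 82 bp upstream of the start, with 399 in the mm9 list, 108 in replicate 1 and 151 in replicate 2. Both are promoter peaks with high values in both replicates. Stat3, a transcription factor below cytokine receptors, had its summit in an intron 7623 bp downstream of the start, with 341 in the mm9 list, 93.8 in replicate 1 and 106 in replicate 2. Tnrc6b, of the microRNA silencing complex, had a summit 24050 bp upstream of its start, with 310, 101 and 119 in the same order. Atxn1 held the element in an intron at a signal of 368 in the mm9 list, and it was not joined to the replicate lists.

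Signal, the authors' value per peak in the mm9 list that pools both replicates, was higher at members than at other peaks as a whole. Members had a median of 81.4 (quartiles 56.0 and 136, highest 1232), against 69.6 at other peaks (51.4 and 115, highest 1743). In the top 25% of the list stood 452 members, or 31.1%, against 24.7% of other peaks, an odds ratio of 1.38 (95% interval 1.23 to 1.55, called here because it leaves out 1). ETS-IRF peaks were stronger than members, with a median of 104.5 and 45.4% in the top 25%, and peaks with neither element were weaker, with 67.7 and 22.6%. The odds ratio of members was 0.543 against ETS-IRF peaks (0.473 to 0.622) and 1.55 against peaks with neither element (1.38 to 1.74). Within deciles of GC content of the window, where members averaged 44.8% GC and other peaks 50.2%, the odds ratio against all other peaks was 1.14 (1.01 to 1.27). The window includes the element itself. Within deciles of GC content of the sequence beside, the odds ratio was 1.31 (1.17 to 1.47).

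Along the list the share of members was highest just below the top 10% of peaks. Its interval there (6.22% to 8.14%) overlaps that of the top 10% (5.14% to 6.91%). In steps of 10% from the weakest to the strongest peaks, members made up 3.76%, 4.12%, 4.08%, 4.84%, 4.92%, 5.24%, 6.18%, 6.32%, 7.12% and 5.96%. The ETS-IRF element made up 4.62% of the weakest 10% and 19.6% of the strongest 10%. In the top 10% of the list stood 11.3% of members, against 9.92% of other peaks, an odds ratio of 1.16 (0.983 to 1.37) that was not called. Within the stronger 50% of the list, the odds ratio for its own top 25% was 0.985 (0.839 to 1.16). In both comparisons the other peaks include ETS-IRF peaks, which the rule leaves out of members. Of ETS-IRF peaks 22.6% stood in the top 10% of the list, and of peaks with neither element 8.65%.

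**Figure D3:**
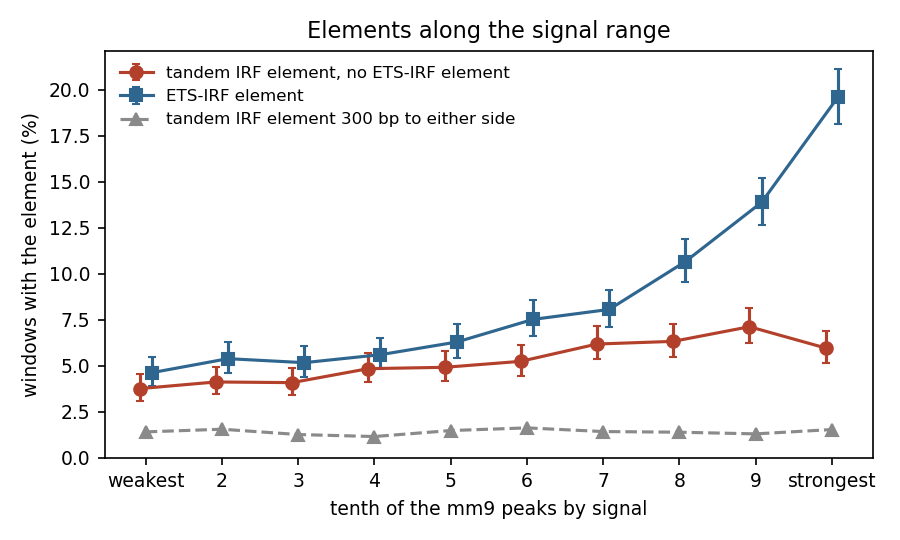
Percent of windows with the tandem element and no ETS-IRF element (red circles), with the ETS-IRF element (blue squares) and with the tandem element 300 bp to either side (grey triangles), in steps of 10% of the mm9 list from the weakest to the strongest signal; bars are 95% Wilson intervals. The tandem element is highest in the step below the strongest, at 7.12%, with an interval that overlaps that of the strongest step. The ETS-IRF element, which the rule leaves out of members, reaches 19.6% in the strongest.

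The strongest members were scattered over genes of several kinds, most of them away from starts. The first lay in an intron of Ppa2, a mitochondrial pyrophosphatase, 6469 bp upstream of the nearest annotated start (peak chr3:132995277-132995613). It had signal 1232 in the mm9 list, rank 12 of all peaks, with 214 in replicate 1 and 249 in replicate 2. The next, between genes on chromosome 16 and 114205 bp from Mrpl39, had 1204 and was not joined to the replicates. The third, in an intron of Ostn, which encodes a secreted peptide, had 1051, with 195 in replicate 1 and 220 in replicate 2. All 3 ranked among the 24 strongest peaks of the whole list.

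Others of the 15 strongest were as follows. The summit at Gbp7, an interferon-induced guanylate-binding protein, was 49 bp upstream of the start (peak chr3:142193096-142193404), with signal 718 in the mm9 list, 148 in replicate 1 and 203 in replicate 2. Trafd1, a brake on innate immune signalling, held its peak in an intron 1298 bp downstream of the start, with 638, 137 and 193 in the same order. Zbtb1, a zinc-finger factor needed for lymphocyte development, held an intronic peak with 557, 146 and 157. Il2rb, a receptor chain for interleukin 2 and interleukin 15, had a summit 15259 bp upstream of its start with 547, 135 and 163. All 4 peaks were higher in replicate 2.

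Further down the 15 strongest, Zbtb32, a repressor that limits memory B cell responses, had a summit 1416 bp upstream of its nearest start with 544 in the mm9 list, 127 in replicate 1 and 133 in replicate 2. Tnfrsf17, the plasma cell receptor for the survival factors BAFF and APRIL, had a summit 27697 bp upstream of its start with 523, 115 and 178. Both windows also held an AP-1 site. The remaining 6 were near Stoml1 (816), Smg1 (719), Rab37 (674), Lgals8 (591), Exoc2 and Hus1b (553), and Sntb1 (544), and of the 15 strongest, Gbp7 and Lgals8 alone were within 1 kb of a start.

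Promoters held a smaller share of members than of other peaks, but members there were stronger. At promoters lay 149 members, or 10.2% (8.79% to 11.9%), against 16.3% of other peaks, an odds ratio of 0.585 (0.493 to 0.696). This direction reversed within deciles of window GC, to which the element's own bases contribute (odds ratio 1.28, 1.06 to 1.54). It held within deciles of GC content of the sequence beside (0.796, 0.658 to 0.962). Window GC apart from the element was not tested. Members at promoters averaged 49.96% GC, against 59.6% at other promoter peaks. Introns held 41.9% of members and 39.8% of other peaks, intergenic sequence 42.0% and 39.1% (odds ratio 1.13, 1.02 to 1.26), UTRs 1.44% and 1.35%, coding exons 1.31% and 1.14%, and non-coding genes 3.09% and 2.35%. Members over 10 kb from a start made up 65.3%, against 60.1% of other peaks.

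The 149 promoter members had a median signal of 90.4, against 59.6 at 4279 other promoter peaks. In the top 25% of the list stood 34.2% of promoter members (27.1% to 42.2%), against 12.99% of other promoter peaks (12.0% to 14.0%), an odds ratio of 3.48 (2.46 to 4.94). Away from promoters, 30.7% of 1305 members stood there, against 26.9% of 21938 other peaks, an odds ratio of 1.20 (1.07 to 1.36). The ratio of these 2 odds ratios was 2.90 (2.00 to 4.20), a comparison chosen after the values were seen. Within deciles of GC content of the window the odds ratios were 2.00 (1.40 to 2.87) at promoters and 1.07 (0.951 to 1.21) elsewhere. Within deciles of GC content of the sequence beside they were 3.15 (2.21 to 4.49) and 1.20 (1.06 to 1.35). Promoter members lay upstream of the nearest start in 75 cases and downstream in 73, with a median distance of 205 bp, against 114 bp for other promoter peaks.

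Genes near members are given by lists taken from textbook knowledge, beside the same share over all 22219 protein-coding genes, and no list was tested. A tandem element summit lay within 10 kb of a start of 603 protein-coding genes, or 2.71%, and within 1 kb for 158, or 0.711%. Any summit of the list lay within 10 kb for 35.8% of genes and within 1 kb for 19.3%, and an ETS-IRF summit within 10 kb for 4.08%. Of the genes with any summit within 1 kb, 3.68% had a tandem element summit there. Each gene's value is the signal of its strongest such summit, and over all 603 genes the median was 82.9.

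Of 40 antiviral interferon-stimulated genes, 15 had a tandem element summit within 10 kb and 13 within 1 kb, beside the 2.71% and 0.711% above, and 32 had any summit within 10 kb. Zbp1, a sensor of Z-form nucleic acid, had its summit 79 bp upstream of the start at a signal of 305 in the mm9 list, 75.2 in replicate 1 and 131 in replicate 2. Ifit1, which binds viral RNA, had its summit 84 bp upstream at 282, with 83.0 in replicate 1 and 121 in replicate 2. Isg20, an exonuclease, had 166 with 45.5 and 69.1 in the same order, 178 bp downstream of its start. Dhx58, which encodes the RNA sensor LGP2, had 166 with 45.2 and 61.9, 19 bp downstream. All 4 were higher in replicate 2, as were most members.

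The other 11 genes of that list, named after their values were seen, were at lower signals. They were Mx1 (129) and Parp14 (128), at 5670 bp and 2240 bp from a start, and, within 1 kb, Ifih1 (123), Trim30a (114), Bst2 (111), Herc6 (103), Isg15 (98.2), Rtp4 (83.7), Oasl2 (79.8), Trim21 (76.7) and Mx2 (75.99). Mx1 and Rtp4 were not joined to the replicate lists. The Trim30a element lay beyond the end of the called peak, 45.5 bp from the summit, and that peak was in neither of the authors' lists of reproducible peaks. Ifih1 encodes the RNA sensor MDA5, Bst2 the tether that holds budding virus to the cell, and Isg15 a ubiquitin-like modifier. Of the 25 genes of this list with any summit within 1 kb, 52.0% had a tandem element summit there, beside 3.68% of all genes. ETS-IRF summits lay within 10 kb of 7 of the 40.

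Of 17 interferon-induced GTPases, which coat and disrupt the compartments of microbes inside cells, 5 had a tandem element summit within 1 kb. The same 5 had one within 10 kb, beside 0.711% and 2.71% of all genes at these 2 distances. After Gbp7 and Irgm1, given above, Gbp5 had its summit 148 bp upstream of the start at 277, with 48.9 in replicate 1 and 103 in replicate 2. Gbp2 had its summit 28 bp upstream at 128, with 34.5 and 54.6. Igtp had 94.2, at 766 bp upstream. The Gbp, Ifit, Oasl, Trim30 and class I genes sit in clusters of similar copies, and the sources used here do not say how reads that fit several copies were placed, so a peak's assignment within such a cluster is uncertain.

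Of 20 genes of MHC class I presentation, which shows peptides from inside the cell to T cells, 11 had a tandem element summit within 10 kb and 8 within 1 kb, beside 2.71% and 0.711% of all genes. Tap1, a subunit of the peptide transporter, and Psmb9, a subunit of the immunoproteasome, share 1 peak between genes, 7526 bp upstream of the Tap1 start and 3704 bp downstream of the Psmb9 start, at 299 in the mm9 list, 58.9 in replicate 1 and 103 in replicate 2. Tapbp, the tapasin that links transporter and class I molecule, had its summit 155 bp downstream of the start at 190, with 44.3 and 81.3. Tapbpl, a related peptide editor, had 141 with 45.0 and 58.3, 109 bp downstream. The rest, named after their values were seen, were Psmb10 (130), B2m (127), H2-M3 (120.5), Erap1 (118), H2-T22 (110.3) and Tap2 with Psmb8 (a shared peak at 98.2). B2m encodes the light chain of every class I molecule, and its summit was 97 bp upstream of the start.

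None of 12 genes of MHC class II presentation had a tandem element summit within 10 kb, beside 2.71% of all genes. A list of 12 is too short to tell 0 from that share. All 12 had some summit within 10 kb and 7 had an ETS-IRF summit, beside 4.08% of all genes. Windows with an ETS-IRF element are left out of members by rule. Within 50 kb, 5 of the 12 had a tandem element summit, or 41.7%, beside 9.10% of all genes.

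Among interferon signalling genes 3 of 14, or 21.4%, had a tandem element summit within 10 kb, beside 2.71% of all genes. Socs1 and Stat3, given above, were among them. Of 9 interferon regulatory factor genes 1, or 11.1%, had one, beside the same 2.71%. It was Irf7, 213 bp downstream of a start, with 16.5 in replicate 1 and 27.9 in replicate 2. Its 67.4 in the mm9 list was below the median of members. Of 20 genes that sense nucleic acids or bacteria, 2, or 10%, had one. Tlr6, a receptor for bacterial lipopeptides, had 111 with 16.1 and 52.4. Myd88, the adaptor below most toll-like receptors, had 81.8 with 21.3 and 41.2. The Tlr6 value was higher in replicate 2.

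Of 19 cytokines and chemokines, 4, or 21.1%, had a tandem element summit within 10 kb, beside 2.71% of all genes. Ccl5, which attracts T cells, had 262 in the mm9 list with 80.3 in replicate 1 and 98.01 in replicate 2, at 4284 bp upstream. Tnfsf13b, which encodes BAFF, had 233 with 67.2 and 87.7, at 239 bp upstream. Il15, a growth factor of lymphocytes, had 127 and was not joined, and Ccl22 had 41.9 with 33.0 and 21.7, the lowest of the named peaks and higher in replicate 1.

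Counts in the 2 B-cell lists, 1 of 24 and 2 of 22, were too small to tell their shares, 4.17% and 9.09%, from the 2.71% of all genes. Any summit lay within 10 kb of 91.7% and 81.8% of these genes, against 35.8% of all genes. Of 24 B-cell identity genes, Foxp1 alone had a tandem element summit within 10 kb, in an intron 1898 bp downstream of a start, at 152 with 57.2 in replicate 1 and 72.0 in replicate 2, while 22 of the 24 had any summit and 4 had an ETS-IRF summit. Of 22 plasma cell and germinal centre genes 2 had one, Cd86 at 65.5 and Gna13 at 61.4, both below the median of members, while 18 had any summit. Cd86 had 34.3 in replicate 1 and 47.9 in replicate 2. Gna13 had 33.3 in replicate 2 and no joined value in replicate 1. None of 25 ribosomal protein genes and none of 24 neuronal genes had a tandem element summit within 10 kb, while 10 and 3 had any summit. Lists of this length cannot tell 0 from 2.71%.

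**Figure D4:**
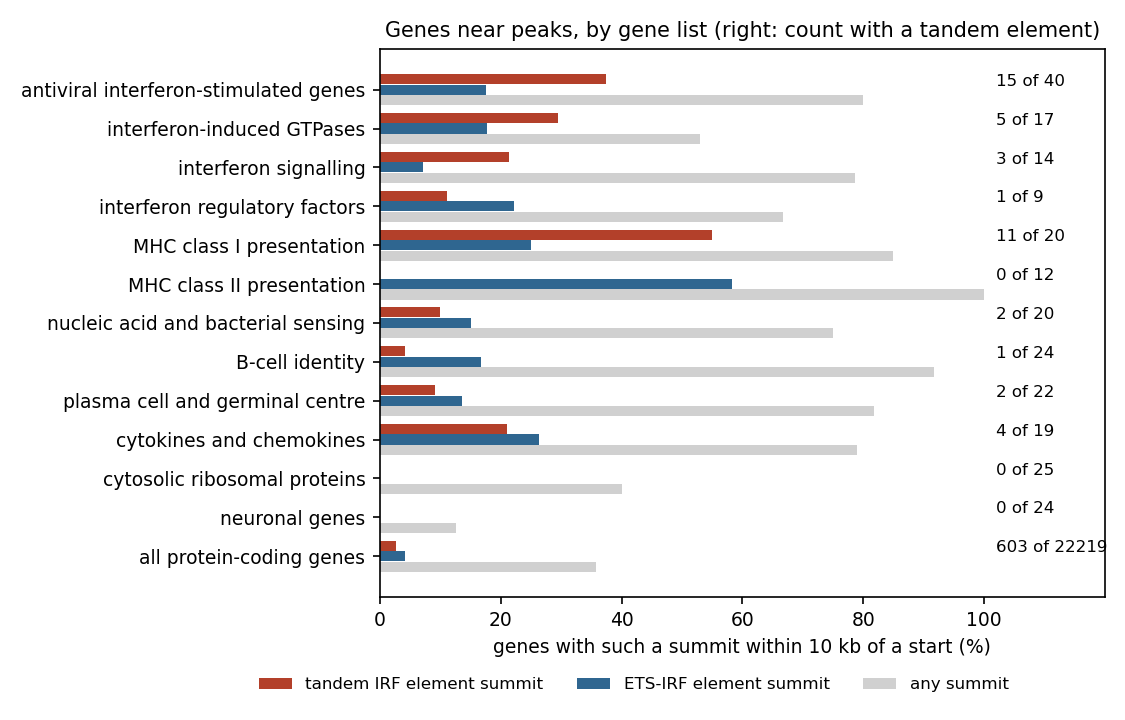
Percent of genes in each list with a tandem element summit (red), an ETS-IRF summit (blue) and any summit (light grey) within 10 kb of a start, with all protein-coding genes at the bottom; the counts on the right are genes with a tandem element summit. The antiviral list reaches 15 of 40 and MHC class I presentation 11 of 20, beside 2.71% of all genes. MHC class II presentation has 0 of 12, a list too short to tell 0 from that share.

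Promoter members outside these lists were also stronger than other promoter peaks. The 28 promoter members within 1 kb of a start of a gene in the interferon and class I lists had a median signal of 122 (lowest 67.4, highest 718) and 57.1% in the top 25% (39.1% to 73.5%). The other 121 promoter members had a median of 79.0 (highest 591) and 28.9% (21.6% to 37.6%), against 59.6 and 12.99% at promoter peaks without a tandem element. Without those 28, the odds ratio at promoters was 2.73 (1.82 to 4.08). Of the strongest promoter peaks outside the lists, Tmem229b had 464 in the mm9 list with 106 in replicate 1 and 150 in replicate 2. Tnfrsf1b, which encodes a receptor for tumour necrosis factor, had its summit 6 bp downstream of the start at 361 with 101 and 134. Slco5a1, Ube2v1 and Arhgap30 had 437, 362 and 303.

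No gene gathered many members. From 10 kb upstream to 10 kb downstream, Foxp1, Prkca, Prkce, Tmcc3, Sik3, Il15, Ccdc146 and Trim30a each held 3. In Trim30a, an interferon-induced gene of 56.2 kb, all 3 of its summits were members, and in Il15 3 of 7 were, whereas in Foxp1, of 341 kb, 3 of 33 were. The Trim30a summit at its start had 9.58 in replicate 1 and 24.0 in replicate 2. It was in neither the authors' optimal nor their conservative list of reproducible peaks. Gm20388, a gene model of 4435 kb that spans many other genes, held 4 of its 96.

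Sites of AP-1, NF-kB and CTCF were less frequent in members than in other peaks. Over 11 motifs, read on both strands in the same window and counted also where they overlap the element, 3 were called, with intervals widened so that the family holds at 95%. AP-1, TGACTCA or TGAGTCA, lay in 8.73% of members and 14.2% of other peaks (odds ratio 0.578, 0.442 to 0.755), and in 1.71% of all windows beside. NF-kB sites lay in 3.30% and 5.83% (0.551, 0.361 to 0.842), and CTCF sites in 0.344% and 2.89% (0.116, 0.0324 to 0.416). The CTCF difference was not called with windows of 25 bp either side (0.0366, 0.00066 to 2.03) or against ETS-IRF peaks (0.750, 0.162 to 3.47). Against ETS-IRF peaks, of which 5.25% held AP-1, the odds ratio for AP-1 in members was 1.73 (1.19 to 2.50), the opposite direction.

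For the remaining 8 motifs the widened interval included 1. RUNX sites, TGNGGTN with C or T at each N, lay in 10.04% of members and 10.2% of other peaks (0.762 to 1.27), GATA sites, NGATAN with A or T first and A or G last, in 10.8% and 8.77% (1.26, 0.984 to 1.61, and 1.25, 1.07 to 1.46, with windows of 100 bp either side), the E-box CAGCTG in 6.67% and 8.83% (0.544 to 1.00), and the octamer ATGCAAAT in 1.99% and 2.64% (0.435 to 1.29). PU.1, EBF1, MEF2 and SP/KLF (GGGGCGGGG) sites each lay in under 1% of members. None of the 11 motifs and no AP-1-IRF composite lay in 915 members, or 62.9%.

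Members with AP-1 were stronger than those without. The 127 members with an AP-1 site had a median signal of 106 and 47.2% in the top 25% (38.8% to 55.9%), against 79.1 and 29.5% (27.1% to 32.1%) of members without one. This comparison was chosen after the values were seen. In 17 of them the AP-1 site formed a composite with an IRF core, adjoining it or 4 bases away, and these had a median of 152, against 100.3 for the other 110.

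Both replicates held most members, as they did most other peaks. The replicate lists are on another build, mm10, so they were joined by distance from the same promoter sequence, which 1060 members had within 100 kb. Of these, 94.6% were joined in replicate 1 and 97.8% in replicate 2, against 90.7% and 96.3% of other peaks with such a sequence. After a shift of 5 kb, 5.66% and 6.98% of these members were joined. The mm9 list was itself made from both replicates pooled, so high shares are built in. The authors' optimal list, of peaks reproducible between replicates, held 91.6% of these members, against 88.3% of other peaks, and the conservative list held 86.7%, against 82.7%. At 991 members joined in both, the median signal was 27.5 in replicate 1 and 39.4 in replicate 2. Replicate 2 was higher at 867 of them, or 87.5%, with a median log2 ratio of replicate 2 to replicate 1 of 0.50 (SD 0.57 over peaks), against 0.57 at other peaks. The rank correlation between replicates, over peaks that share libraries, was 0.806 for 991 members, 0.759 for 17663 other peaks and 0.895 for the 1667 ETS-IRF peaks among these.

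Each replicate alone gave a similar excess of members in the top 25%. By replicate 1, 30.1% of members were in the top 25% of joined peaks (27.3% to 33.0%), against 24.7% of other peaks (24.1% to 25.4%). By replicate 2, 29.8% of members were (27.004% to 32.7%), against 24.7% of other peaks (24.1% to 25.4%).

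**Figure D5:**
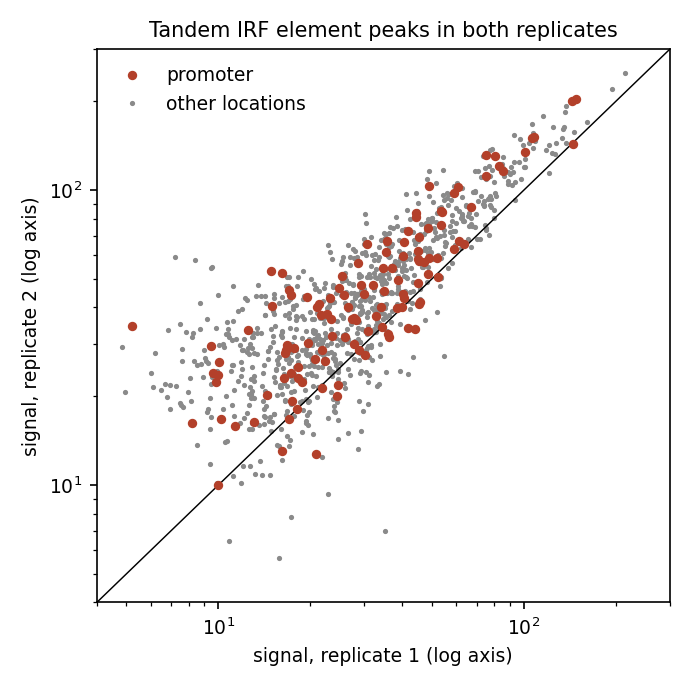
Signal of 991 tandem element peaks in replicate 1 (horizontal, log axis) and replicate 2 (vertical, log axis), with promoter peaks in red, other locations in grey, and the line of equal values. Most points, 867, lie above the line.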

How the data were processed

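The data are peak lists of IRF4 ChIP-seq in CH12.LX. Each peak carries a signal from the authors' caller, deposited per the file headers in the narrowPeak layout, with no scale stated. Per the deposited file descriptions, the mm9 list was derived from mm9 alignments of replicates 1 and 2 pooled, and the replicate, optimal and conservative lists are on mm10. Aligner, caller and depth were not given in the sources used here. Precision rests on counts of peaks.

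Members, gene lists and tests were chosen with earlier results of these data known. Summits were start plus offset. Windows were read from the NCBIM37 genome and locations from its GENCODE annotation, in the order promoter, coding exon, UTR, intron, non-coding gene, intergenic. Odds ratios carry 95% intervals by Woolf's method, stratified ones by that of Mantel and Haenszel, and motif intervals were widened over 11 motifs (Bonferroni). A result was called when its interval left out 1. No p-values were computed, because peaks are not replicates.

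Replicate values were attached without converting coordinates. RefSeq GRCm38.p6 promoter sequences were found letter for letter in mm9 for 19504 of 32851 entries, and a peak was joined when its signed distance from the nearest one, at most 100 kb away, agreed within 100 bp on both builds.

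Of 249 listed symbols, 244 matched a gene. Genes named are those nearest to the 15 strongest members, up to 4 per list by signal, the 5 with most members (ties included), the 5 strongest peaks with 3 cores in a row and the 10 strongest promoter peaks. A gene that this rule takes is not reported here. The motif search and the intervals were tested on simulated data. Python 3.11.15 was used with numpy 2.4.6, pandas 2.3.3, scipy 1.17.1, pysam 0.24.0 and matplotlib 3.10.9, and samtools 1.23.1. Alternatives changed the window, the members, the comparison peaks, GC strata, the distance to a start and the join.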

Additional observations from a re-analysis of the deposited data

How the results depend on the processing

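The tandem element share was 3.11% with windows of 25 bp either side, 7.27% with 100 bp, 5.79% with ETS-IRF windows kept and 6.17% in the stronger 50% of the list. In all 4 it stayed above the sequence beside, by 2.62 to 4.54 times. The top-25% odds ratio was 0.985 in the stronger 50%, 0.543 against ETS-IRF peaks and 1.16 for the top 10%. It was 1.31 and 1.34 with either replicate left out. The promoter odds ratio was 1.28 within deciles of window GC, 1.14 against ETS-IRF peaks and 0.959 in the stronger 50%. The intergenic odds ratio was 1.13 with windows of 25 bp (interval 0.986 to 1.30), 1.06 in the stronger 50%, 1.03 within deciles of GC beside and 0.981 against ETS-IRF peaks. Against ETS-IRF peaks, the odds ratio was 1.73 for AP-1, 1.20 for the octamer, 1.61 for NF-kB, 1.31 for RUNX, 1.02 for the E-box and 1.42 for SP/KLF; MEF2 was 0.984 against peaks with neither element. Calls were gained for the E-box with windows of 100 bp (0.802) and against peaks of neither element (0.717), and for PU.1 against ETS-IRF peaks (0.144). The PU.1 pattern contains GGAA, as does the ETS-IRF element that members may not hold. The PU.1 comparison is therefore not independent of the rule. The cause of these changes was not tested. For signal and location, comparisons with ETS-IRF peaks and with peaks of neither element were added after seeing the data, as were window GC and promoter peaks alone for signal, and peaks of neither element for motifs. Of gene lists, the antiviral count was 13 within 1 kb and 23 within 50 kb, and MHC class I 8 and 13. At 1 kb or 50 kb the count moved by over 1.5 times in 10 of the 12 lists, the exceptions being MHC class I and the GTPases. The median log2 ratio between replicates was 0.50 with join tolerances of 50 bp and 200 bp.

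No paired analysis was possible because the study has 1 group. With 2 replicates pooled in the mm9 list, peak signals there have no replicate error. Depth is unknown, so an absent peak is not evidence of no binding. Windows were searched for exact letters, so elements with a changed base are missed. A promoter sequence for the join was near 72.9% of members. The nearest gene need not be the one regulated, and no expression was measured here.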
